A study of Caenorhabditis elegans with 16 samples.

Results

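The heat shock response described here is that of 6 libraries whose titles end in 12_7, of the 16 libraries of the series. They are 1 heat-shocked and 1 standard library each of N2, BB4 and BB21, chosen by the title ending and paired by strain, so that the 3 strains serve as replicates of the heat shock. N2 is the Bristol wild type, BB4 carries adr-1(gv6) and adr-2(gv42), and BB21 carries adr-1(tm668) and adr-2(ok735). The mutant alleles are in the ADAR genes, whose proteins act on double-stranded RNA and edit adenosine to inosine. In the heat shock group L4 larvae spent 75 min at 34 °C in a water bath, 20 min at room temperature and 3 h at 20 °C before RNA was taken, and the standard group stayed at 20 °C. The other 10 libraries are 4 whose titles end in 28_6, from N2 and BB4, and 6 with other endings. The labels do not say what the endings stand for. Each strain has 1 library per condition with this ending, and pairing by strain takes out differences in level between strains. The spread behind each test therefore holds differences in response between strains as well as between worm populations. A difference between strains in the response has no test.

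When worms are heated, unfolded proteins accumulate and the transcription factor HSF-1 turns on genes for chaperones. Chief among them are the small heat-shock proteins of the HSP-16 family, which hold unfolding proteins, and inducible HSP70s, which help them refold. Misfolding in the endoplasmic reticulum turns on a separate unfolded protein response, with the BiP chaperone HSP-4 as a usual readout. The L4 larva is the last larval stage, in which the adult cuticle is prepared and the germ line makes sperm before it turns to oocytes.

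Values are read counts per transcript divided by the size factor of the library, called normalized counts below. The heat-shocked libraries held 4699505 to 8773564 reads and the standard ones 7697788 to 9624995. The heat-shocked N2 library was the shallowest and stood apart. Across 24048 transcript features, Pearson's r of its log2 values was 0.886 with heat-shocked BB4 and 0.870 with heat-shocked BB21, while heat-shocked BB4 and BB21 had an r of 0.957 and the standard libraries 0.961 to 0.968. Its 10 most abundant features took 4.87% of its reads, against 2.59% to 3.37% in the other 5 libraries. Many counts are therefore also given without it, though not every count that moved. N2 is also the only one of these strains without ADAR mutations, so the depth of this library and the genotype cannot be told apart. Since strain is a block, counts without this library rest on the pairs of BB4 and BB21, the ADAR mutant strains. The normalized count of adr-1 was 1335 in N2, 597 in BB4 and 564.5 in BB21 after heat shock, against 1853, 558 and 429 under standard conditions. That of adr-2 was 732 in N2, 247.3 in BB4 and 162 in BB21 after heat shock, against 1338, 284 and 140 under standard conditions. Both genes were lower in the mutant strains than in N2 in either condition. Defining markers of the tissues of a whole worm were present in all 6 libraries, except that no feature carried the symbol myo-1. The muscle gene unc-54 had 12648 to 19172 after heat shock against 8395 to 13379 under standard conditions, and the intestinal factor elt-2 had 19.02 to 143 against 83.2 to 148. The summed yolk gene vit-6, a marker of adults, had 10447 to 14857 after heat shock against 22810 to 25512.

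The response was large and mostly upward. Among the 24048 features whose mean reached 1 normalized count, 1290 rose and 602 fell at an adjusted p under 0.05 (limma on log2 of the normalized count plus 1, with strain as a block and Benjamini-Hochberg adjustment over all features). Fold changes are on that log2 scale and depend on the added 1 where counts are low. The study's further threshold of 4-fold left 1010 raised features (4.2% of those tested) in 955 genes and 216 lowered features (0.898%) in 195 genes. At 2-fold there were 1283 raised (5.34%) and 573 lowered (2.38%) features. All 3 heat-shocked libraries lay above all 3 standard ones for 4188 features (17.4%) and below them for 3384 (14.1%).

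Log2 fold changes ran from -5.11 to 9.49, with a median of 0.10. The features raised over 4-fold were scarce in standard worms, with a median of 110 normalized counts after heat shock against 10.7 under standard conditions, and 102 of them had no read in any standard library. The lowered ones were more abundant, with a median of 38.0 after heat shock against 210.1 under standard conditions. Without the strain block 679 features were raised and 128 lowered over 4-fold. After quantile normalization 555 were raised and 270 lowered, and the median of all features was -0.04. Without the standard BB4 library 534 were raised and 84 lowered, without the heat-shocked N2 library 1461 and 385, and without the heat-shocked BB21 library 1190 and 405.

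**Figure D1:**
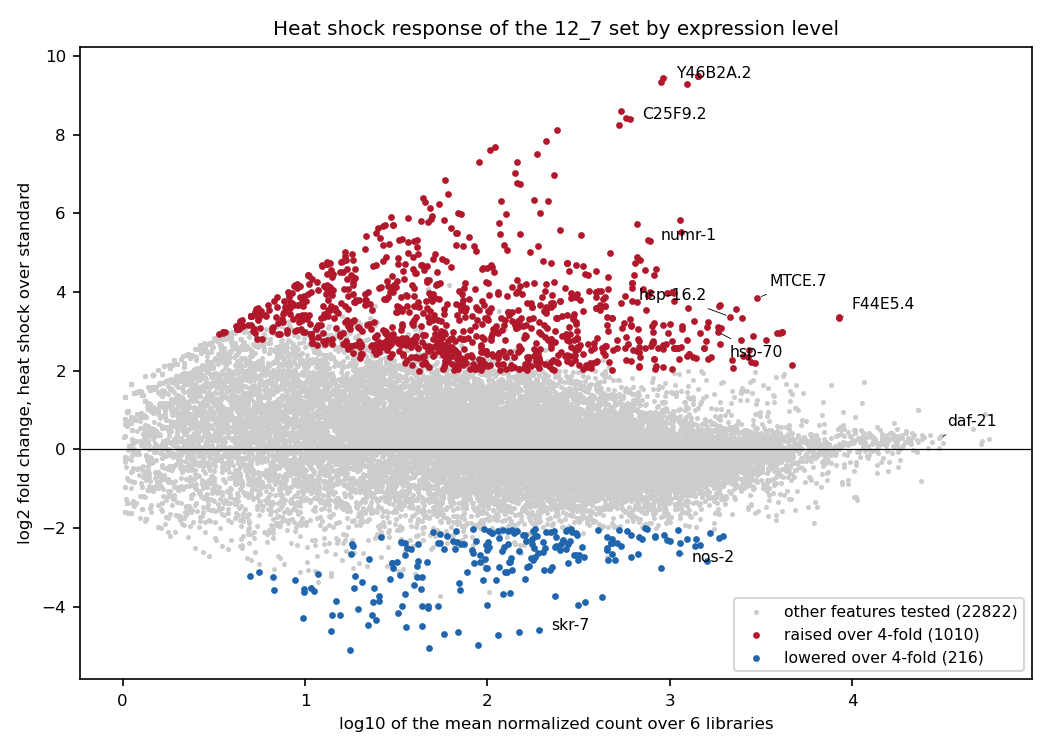
Log2 fold change of heat shock over standard conditions (vertical axis) against the log10 of the mean normalized count over the 6 libraries (horizontal axis) for the 24048 features tested. The 1010 features raised over 4-fold (red) reach 9.49, and the 216 lowered ones (blue) reach -5.11.

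Among the small heat-shock proteins the hsp-16 genes rose together, with log2 fold changes of 2.95 to 3.37. hsp-16.2 had normalized counts of 5400 in N2, 3400 in BB4 and 2935 in BB21 after heat shock, against 332, 374 and 389 under standard conditions. The groups were far apart, with N2 the highest after heat shock and the lowest without it. The log2 fold change of hsp-16.2 was 3.37 (standard error 0.28, adjusted p = 0.000761 from limma). hsp-16.11 had 10054 in N2, 6787 in BB4 and 4619 in BB21 after heat shock, against 1021, 876 and 762, which is 2.95 on the log2 scale (standard error 0.23, adjusted p = 0.000655 from limma). Here the strains had the same order in both conditions. hsp-16.1 had a log2 fold change of 2.96 and hsp-16.48 one of 2.97. hsp-16.48 and hsp-16.49 had the same reads in every library and count as 1 measurement, and hsp-16.1 and hsp-16.11 had close to the same counts, so their reads may be shared, since reads that aligned in several places were kept.

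In the whole list of 23 small heat-shock protein features, 9 were raised over 2-fold (39.1%, against 5.34% of all features) and none was lowered, with a median log2 fold change of 0.73 against 0.10 for all features. The 9 were the 6 hsp-16 genes with hsp-12.6, F08H9.3 and F08H9.4, of which the last 3 were named after their values were seen. hsp-12.6 had a log2 fold change of 2.92, F08H9.4 of 3.63 and F08H9.3 of 2.31. Those that did not pass included the features of hsp-17, hsp-25, hsp-43 and sip-1. sip-1 had a log2 fold change of -0.78 (adjusted p = 0.0803 from limma). No alternative changed the call of hsp-16.2, hsp-16.11, hsp-16.1 or hsp-16.48.

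Of the 4 inducible HSP70 genes, 3 rose. hsp-70 (C12C8.1) had 2847 in N2, 3423 in BB4 and 3456 in BB21 after heat shock, against 354, 414 and 460 under standard conditions. The strains lay close together in both groups, and the log2 fold change was 2.99 (standard error 0.23, adjusted p = 0.000655 from limma). F44E5.4 was the most abundant, with 16183 in N2, 18208 in BB4 and 11955 in BB21 after heat shock, against 1444, 1588 and 1445. On the log2 scale it rose by 3.35 (standard error 0.20, adjusted p = 0.000319 from limma), and F44E5.5, with close to the same counts, had 3.34. F11F1.1 had 108 in N2, 44.8 in BB4 and 62.3 in BB21 after heat shock, against 89.5, 77.1 and 61.7. Its groups overlapped, and the log2 fold change, -0.16 (standard error 0.44, adjusted p = 0.831 from limma), was 0.14 without either BB4 library.

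The chaperones that cells also make without stress did not pass the test in the 6 libraries. None of the 19 features of cytosolic chaperones and none of the 11 of the CCT chaperonin was called over 2-fold by limma, edgeR or DESeq2, and at an unadjusted p under 0.05 limma gave 4 higher and 1 lower among the first and 0 among the second. Without either N2 library 3 of the 19 were raised. daf-21, the worm HSP90, had 30587 in N2, 34543 in BB4 and 33083 in BB21 after heat shock, against 32304, 24876 and 24246. BB4 and BB21 were higher after heat shock and N2 was slightly lower, and the log2 fold change was 0.28 (standard error 0.19, adjusted p = 0.357 from limma). hsp-1, the constitutive HSP70, had a log2 fold change of 0.50 (adjusted p = 0.138 from limma), which passed in the fit of all 8 pairs (adjusted p = 0.0281). C30C11.4, an HSP110-like protein, had 2739 in N2, 5442 in BB4 and 5128 in BB21 after heat shock, against 3957, 3046 and 3470. Its log2 fold change was 0.29 (adjusted p = 0.522 from limma), and 0.70 without the heat-shocked N2 library (adjusted p = 0.0294).

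**Figure D2:**
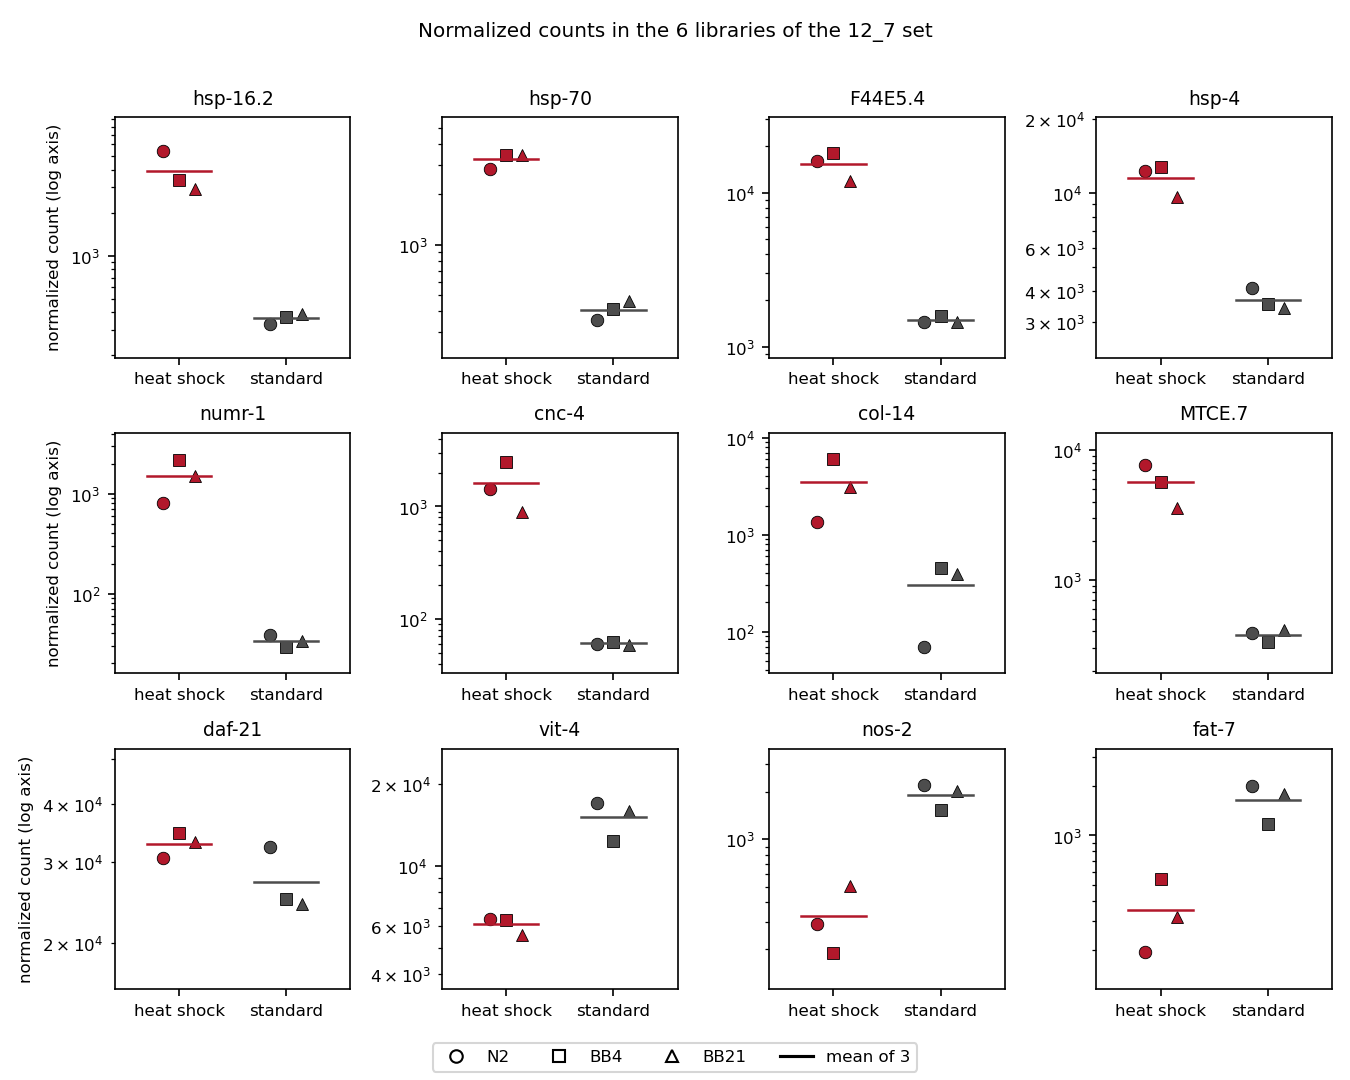
Normalized counts (log axis) of 12 features in the 6 libraries, heat shock (red) left of standard (grey), with a circle for N2, a square for BB4, a triangle for BB21 and a line for the mean of 3. The groups overlap for daf-21 and are apart for the other 11, of which vit-4, nos-2 and fat-7 lie lower after heat shock.

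Among genes for protein folding stress in the endoplasmic reticulum 4 features of 30 were raised over 2-fold (13.3%, against 5.34% of all features) and none was lowered. hsp-4, the BiP chaperone, had 12327 in N2, 12756 in BB4 and 9626 in BB21 after heat shock, against 4126, 3520 and 3421 under standard conditions. The log2 fold change was 1.64 (standard error 0.19, adjusted p = 0.00382 from limma), and every heat-shocked library was over 2-fold above every standard one. ckb-2, a choline kinase, had 3104 in N2, 3257 in BB4 and 1870 in BB21 after heat shock, against 431, 333 and 421, which is 2.76 on the log2 scale (standard error 0.28, adjusted p = 0.00216 from limma). The other 2 raised features were transcripts of dnj-27, a DnaJ protein of the endoplasmic reticulum, with log2 fold changes of 1.72 and 1.77, named after their values were seen. crt-1, which encodes calreticulin, had 11186 in N2, 14391 in BB4 and 10554 in BB21 after heat shock, against 8300, 8684 and 8610. The groups did not overlap, yet crt-1 did not pass (log2 fold change 0.48, adjusted p = 0.146 from limma), except in the fit of all 8 pairs (adjusted p = 0.0313). The list's count was 2 without either BB4 library and 6 without either N2 library.

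Among the chaperones and import factors of mitochondria 2 of 22 features rose over 2-fold (9.09%, against 5.34% of all features). Both were of dve-1, a transcription factor of the mitochondrial stress response. 1 of them had no standard read and a mean of 12.3 normalized counts after heat shock. Against a floor of 3 reads per standard library it was at least 2.55-fold higher. The count of 2 was 3 without either N2 library and 0 without any one of the other 4. Among 45 features of stress regulators 2 rose (4.44%, below the 5.34% of all features), both of pha-4, a FoxA transcription factor, with 5 without the heat-shocked and 4 without the standard N2 library. dve-1 and pha-4 were named after their values were seen. Metal and oxidative stress genes gave 5 raised features of 28 (17.9%), which were 2 of sod-4, an extracellular superoxide dismutase, and those of trx-3, numr-1 and numr-2. trx-3, a thioredoxin, had a log2 fold change of 2.48. Without either BB4 library the count was 2. numr-1, a gene induced by metals, had 802 in N2, 2185 in BB4 and 1494 in BB21 after heat shock, against 38.3, 29.5 and 33.5. On the log2 scale it rose by 5.32 (standard error 0.40, adjusted p = 0.000655 from limma), the largest of these stress lists, and its near copy numr-2 had 4.81.

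The features with the largest fold changes were nearly silent in standard worms. Y46B2A.2 had 907 in N2, 1629 in BB4 and 2982 in BB21 after heat shock, against 0, 1.64 and 4.03 under standard conditions. Its log2 fold change was 9.44 (standard error 0.44, adjusted p = 0.000173 from limma). Its 4 standard reads make the fold imprecise, with a ratio of 1016 and a 95% counting interval of 396 to 3730. Y16E11A.2, F59H6.5, ZK250.10 and F33H12.6 had log2 fold changes of 9.49, 9.49, 9.34 and 9.28. By their counts the 5 formed 2 groups, Y46B2A.2 with ZK250.10 and the other 3 with each other. Within a group the counts were close enough that reads may be shared, so they are not separate evidence, and the annotation used here gives none of them a type. In all 5 the order after heat shock was BB21, BB4, N2, while in hsp-16.11 it was N2, BB4, BB21. Y53F4B.26 had 1145 in N2, 1183 in BB4 and 916 in BB21 after heat shock, against 0, 3.28 and 4.03, and Y53F4B.7 had 1237, 1241 and 979 against 0, 4.92 and 5.37. C25F9.2 had 1395 in N2, 729 in BB4 and 1482 in BB21 after heat shock, against 1.83, 4.92 and 1.34. The log2 fold change was 8.40 (standard error 0.56, adjusted p = 0.000521 from limma).

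Where the 3 standard libraries had no read, only a lower bound can be given, against a floor of 3 reads per library. By this bound the nuclear hormone receptor gene nhr-241 was at least 45.5-fold higher, with 342 in N2, 168 in BB4 and 146 in BB21 after heat shock. The F-box gene fbxb-117 was at least 37.6-fold higher, with 304 in N2, 153.5 in BB4 and 83.9 in BB21. Of the 102 raised features without a standard read, 85 were at least 2-fold and 40 at least 4-fold higher by it. nhr-247 had 726 in N2, 296 in BB4 and 230.1 in BB21 after heat shock, against 0, 3.28 and 0 (adjusted p = 0.00131 from limma). Its 2 standard reads gave a ratio of 336, with a 95% counting interval of 92.5 to 2781. Among the abundant raised features F19B2.5 had 9655 in N2, 5749 in BB4 and 7399 in BB21 after heat shock, against 1508, 2141.5 and 1473. The fold change was 2.14 on the log2 scale (standard error 0.27, adjusted p = 0.00485 from limma), and the groups were well apart in spite of the high standard level. The rise of F19B2.5 was not seen elsewhere, with log2 fold changes of -0.03 in the 28_6 pairs and 0.003 in those with other endings. It differed from the mean of these sets by 2.16 (adjusted p = 0.0241 from limma).

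Genes of the cuticle gave the largest raised count among the lists of protein-coding genes. Of 189 features of cuticle collagens 84 were raised over 2-fold (44.4%, against 5.34% of all features) and 4 were lowered, with a median log2 fold change of 1.34 against 0.10. In bulk RNA of whole worms, fewer cells of a type and less RNA per cell cannot be told apart, and the same holds for more of either. col-14 had 1366.5 in N2, 6003 in BB4 and 3080 in BB21 after heat shock, against 69.4, 458 and 389 under standard conditions. The N2 libraries were the lowest in both conditions, yet the ratio was high in each strain, and the log2 fold change was 3.66 (standard error 0.30, adjusted p = 0.000761 from limma). col-48 had a log2 fold change of 3.78. col-88 had 1455 in N2, 11445 in BB4 and 4868 in BB21 after heat shock, against 206, 1080 and 1100. Its heat-shocked N2 library was only slightly above the standard BB4 and BB21 libraries, and the log2 fold change was 2.79 (standard error 0.28, adjusted p = 0.002 from limma). col-97 had 957.5 in N2, 9298 in BB4 and 5105 in BB21 after heat shock, against 172, 847 and 778 (log2 fold change 2.88).

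The collagen calls rest on the pairing by strain. Without the block 14 of the 189 features were raised, and col-88 (adjusted p = 0.0813) and col-97 (adjusted p = 0.0835, limma for both) were not called. Without the heat-shocked or the standard BB4 library the count was 50 or 48. Without the heat-shocked N2 library it was 97, with 11 lowered instead of 4. The 4 lowered features were col-149, col-98, col-101 and col-143, of which the last 3 were named after their values were seen. col-149 had 288.5 in N2, 392 in BB4 and 579 in BB21 after heat shock, against 1001, 2603 and 1816. Its log2 fold change was -2.05 (standard error 0.29, adjusted p = 0.00737 from limma), in contrast to col-14 and col-88, and it was not called without the standard BB4 library (adjusted p = 0.0681). Of the epidermal markers dpy-7 had 12.7 to 187 after heat shock against 25.6 to 37.7, and lin-26 had 434 to 1042 against 881 to 1145. Their part in the collagen result was not tested.

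Molting and hedgehog-related genes, many of which act in the cuticle and its renewal, gave 32 raised features (14.9% of those in the list, against 5.34% of all features) and 2 lowered, and their median change was 1.14. ptr-18, a patched-related gene, had 298 in N2, 701 in BB4 and 606.5 in BB21 after heat shock, against 21.9, 16.4 and 25.5. Its groups were far apart (log2 fold change 4.52, standard error 0.44, adjusted p = 0.00181 from limma). grl-21, of the ground-like family, had 723 in N2, 2654 in BB4 and 1195 in BB21 after heat shock, against 9.13, 226.5 and 98.0 (log2 fold change 4.43). grl-4 had 872 in N2, 3773 in BB4 and 1758.5 in BB21 after heat shock, against 500.3, 564.5 and 529. It had a log2 fold change of 1.76 (adjusted p = 0.0252 from limma), which did not pass without either BB4 library or without the block. The count of 32 was 93 without the heat-shocked and 71 without the standard N2 library, and 14 and 12 without those of BB4. It was 14 without the block and 15 after quantile normalization. The 2 lowered features were 5 without the heat-shocked N2 library.

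The abu and pqn genes, which encode glutamine- and asparagine-rich proteins, many of them of the pharyngeal cuticle, gave 23 raised features of 113 (20.4%, against 5.34% of all features) and no lowered one. abu-10 had 165 in N2, 2383 in BB4 and 1179 in BB21 after heat shock, against 3.65, 105 and 49.7. The log2 fold change was 4.73 (standard error 0.36, adjusted p = 0.000655 from limma). abu-8 had 320.2 in N2, 3353 in BB4 and 1746 in BB21 after heat shock, against 14.6, 223 and 138 (log2 fold change 3.97). As in the collagens, N2 was the lowest strain in both conditions. Without the block 2 of the 113 features were raised, and neither abu-8 nor abu-10 passed. The count was 46 and 39 without the heat-shocked and the standard N2 library, and 14 and 13 without those of BB4. The list of 145 pharynx features, with 24 raised and 0 lowered, holds these genes. Without the heat-shocked N2 library 48 of the pharynx features were raised and 2 lowered.

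Of 96 antimicrobial peptide features 21 were raised over 2-fold (21.9%, against 5.34% of all features) and 3 lowered (3.12%, against 2.38%), and the median log2 fold change was 0.92. cnc-4, which encodes a caenacin, had 1424 in N2, 2500 in BB4 and 902 in BB21 after heat shock, against 60.3, 62.4 and 59.045. The standard libraries were nearly equal, and the log2 fold change was 4.58 (standard error 0.35, adjusted p = 0.000655 from limma). cnc-11 had 729 in N2, 501 in BB4 and 218 in BB21 after heat shock, against 0, 0 and 2.68 (adjusted p = 0.00147 from limma). With 2 reads in its standard libraries its ratio was 391, with a 95% counting interval of 108 to 3235. The raised count ranged from 19 to 29 when 1 library was left out, and 6 were lowered without the heat-shocked N2 library.

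F-box genes, whose products choose substrates for ubiquitin ligases, gave 24 raised and 4 lowered features of 313. Without the heat-shocked N2 library 38 were raised and 17 lowered, and without the standard BB4 library 15 were raised. The raised share of 7.67% lay close to the 5.34% of all features, and the median of 0.35 was -0.08 after quantile normalization. fbxa-50 had 273 in N2, 240.9 in BB4 and 100.2 in BB21 after heat shock, against 3.65, 11.5 and 6.71 (log2 fold change 4.62, standard error 0.58, adjusted p = 0.00486 from limma). fbxa-215 had 387 in N2, 443 in BB4 and 531 in BB21 after heat shock, against 1747, 1275 and 1480. It fell by 1.72 on the log2 scale (standard error 0.26, adjusted p = 0.00915 from limma), and with it fbxb-59, fbxa-181 and fbxa-170, which were named after their values were seen. Of 319 nuclear hormone receptor features 5 were raised (1.57%, against 5.34%) and 6 lowered (1.88%, against 2.38%), with 21 and 15 without the heat-shocked N2 library and 2 and 0 without the standard BB4 library.

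The partners of F-box proteins gave calls in both directions. Of 31 features of skr genes, which encode Skp1-like adaptors, and cullins, skr-3 and cul-6 rose and skr-7, skr-9, skr-12, skr-13 and skr-14 fell. cul-6, skr-9, skr-12 and skr-13 were named after their values were seen. skr-7 had 111 in N2, 0 in BB4 and 21.7 in BB21 after heat shock, against 363, 230 and 419. Its fall varied between strains, with a log2 difference of -4.59 (standard error 0.97, adjusted p = 0.0281 from limma). It was not called without the standard BB4 library (adjusted p = 0.071), nor without the block (adjusted p = 0.0919). Without the filter on low values it was not called either (adjusted p = 0.0578, limma for all 3). skr-3 had 1728 in N2, 2897 in BB4 and 1901 in BB21 after heat shock, against 944, 1032 and 641, a log2 fold change of 1.31 (adjusted p = 0.0195 from limma). The 5 lowered features were 3 without the heat-shocked BB4 library, 1 without the standard BB4 library, 3 without the standard BB21 library and 8 without the heat-shocked N2 library. The 2 raised ones were 0 without either BB4 library and 1 without either BB21 library.

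Of 83 histone features 25 were raised over 2-fold (30.1%, against 5.34% of all features), none was lowered and the others did not pass, with a median log2 fold change of 1.29. his-26 had 894 in N2, 428 in BB4 and 246 in BB21 after heat shock, against 38.3, 34.5 and 2.68. The order N2, BB4, BB21 held in both conditions, and the log2 fold change was 4.73 (standard error 0.53, adjusted p = 0.00314 from limma). his-25 had 770.5 in N2, 443 in BB4 and 397 in BB21 after heat shock, against 91.3, 67.3 and 16.103 (log2 fold change 3.43). Histone genes exist in many nearly identical copies that can share reads, and most of their messages lack a poly(A) tail. The count was 39 without the heat-shocked N2 library and 11 without the standard BB4 library.

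The raised share differed between classes of non-coding features. Of 565 features annotated as ncRNA, 100 were raised over 4-fold (17.7%, against 4.2% of all features) and none was lowered. Most were low, with 151 of the 565 at 0 in all standard libraries, and their median log2 fold change of 1.51 was 0.74 with those set to their lower bound. Among the 160 with a mean of at least 20 normalized counts, 80 were raised over 4-fold and 83 over 2-fold. The 83 were 17 without the block, 52 without the standard N2 library, and 35 after quantile normalization. Many are near copies: the 160 formed 120 groups of parallel counts (within 0.15 on the log2 scale), and 47 of these groups held the 80 raised features. F16A11.7 had 5333 in N2, 1795 in BB4 and 759 in BB21 after heat shock, against 383, 921 and 93.9, and was named after its values were seen. Its log2 fold change was 2.59 (standard error 0.48, adjusted p = 0.0186 from limma), and its groups overlapped. Of 77 snRNA features, from the RNAs of the spliceosome, 40 were raised over 4-fold (51.95%), in 9 of 38 groups of parallel counts. The snRNA features were low too, with a median of 10.7 normalized counts, so their fold changes depend on the added 1. Of the 17 features annotated as lncRNA 1 was raised over 2-fold, T09F5.12, named after its values were seen (log2 fold change 1.77, adjusted p = 0.0261 from limma), and none was lowered. None of the 19 antisense RNA features was called by limma, edgeR or DESeq2 (0 at an unadjusted p under 0.05 from limma). Of the 19 features annotated as rRNA limma and edgeR called 0 over 2-fold and DESeq2 12, with 14 higher and 0 lower at an unadjusted p under 0.05 from limma and a median log2 fold change of 1.52. Without the heat-shocked BB21 library 18 of the rRNA features were raised over 2-fold, and 4 without the standard BB21 library. The libraries were made from poly(A)-enriched RNA, and how far snRNA and rRNA were captured in each library was not tested.

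The ribosomal RNAs of mitochondria rose while most other mitochondrial transcripts did not. MTCE.7, the small subunit RNA, had 7727 in N2, 5691 in BB4 and 3571 in BB21 after heat shock, against 389, 333 and 408 under standard conditions. The log2 fold change was 3.84 (standard error 0.28, adjusted p = 0.000655 from limma). MTCE.33, the large subunit RNA, had 5038 in N2, 3159 in BB4 and 2089 in BB21 after heat shock, against 365, 445 and 339.5 (log2 fold change 3.08, adjusted p = 0.00142 from limma), and was named after its values were seen. In both the order after heat shock was N2, BB4, BB21. Of the 12 other mitochondrial features only MTCE.34 passed, with a log2 fold change of 1.36 (adjusted p = 0.0088 from limma), and the 12 ranged from -0.10 to 1.36 with a median of 0.25. All 12 had a mean of at least 120.5 normalized counts.

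Genes of oocytes and early embryos had the largest lowered share of the lists. Of 34 features 22 were lowered over 2-fold (64.7%, against 2.38% of all features), none was raised, and the median log2 fold change was -1.29. nos-2, a Nanos homolog that acts in primordial germ cells, had 288.5 in N2, 190 in BB4 and 505 in BB21 after heat shock, against 2224, 1531 and 2021. The groups were far apart, with a log2 difference of -2.65 (standard error 0.29, adjusted p = 0.00293 from limma). egg-2, needed on the oocyte for fertilization, had 450.2 in N2, 198 in BB4 and 401 in BB21 after heat shock, against 1767, 1282 and 1469 (log2 fold change -2.18, standard error 0.27, adjusted p = 0.00492 from limma). cpg-1, a chondroitin proteoglycan of the eggshell, had 3646 in N2, 2566.5 in BB4 and 4492 in BB21 after heat shock, against 9909, 8152.5 and 8578 (log2 fold change -1.35), with an adjusted p of 0.0943 without the standard BB4 library. In these 3 genes BB4 was the lowest strain in both conditions. The count of 22 was 12 without the heat-shocked and 4 without the standard BB4 library, and 13 without the block.

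Of 34 DNA replication features 8 were lowered over 2-fold (23.5%, against 2.38% of all features), none was raised and the median was -1.01. At an adjusted p under 0.05 alone 11 fell. mcm-3, a subunit of the replicative helicase, had 631 in N2, 458 in BB4 and 900.2 in BB21 after heat shock, against 1676, 1293 and 2228 (log2 fold change -1.40, standard error 0.23, adjusted p = 0.0119 from limma). Each strain fell to a similar extent. rnr-2, of ribonucleotide reductase, had 1760 in N2, 1449.5 in BB4 and 1817 in BB21 after heat shock, against 4223, 3003 and 4200.3 (log2 fold change -1.17). The count was 0 without either BB4 library, 13 without the heat-shocked N2 and 14 without the heat-shocked BB21 library. Of 46 features of general germ line genes 1 was lowered (2.17%, against 2.38%), a transcript of gld-3 named after its value was seen, and the median was -0.53. pgl-1, of the P granules, had 4090 in N2, 4071 in BB4 and 3803 in BB21 after heat shock, against 5483, 4490 and 4509 (log2 fold change -0.27, adjusted p = 0.394 from limma).

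The yolk protein genes, which the intestine transcribes for oocytes, were lower in every strain. Of 9 features 8 fell at an adjusted p under 0.05 and 4 of them over 2-fold (44.4%, against 2.38% of all features). vit-1 had 3389 in N2, 3042 in BB4 and 2640 in BB21 after heat shock, against 10577, 6917 and 7768.5 (log2 fold change -1.46, standard error 0.20, adjusted p = 0.00677 from limma). vit-4 had 6363.5 in N2, 6352 in BB4 and 5599 in BB21 after heat shock, against 16936, 12314 and 15842 (log2 fold change -1.29). The heat-shocked libraries were more alike than the standard ones in both genes. vit-2 had 6769 in N2, 6919 in BB4 and 7233 in BB21 after heat shock, against 13080, 11315 and 11797 (log2 fold change -0.79, adjusted p = 0.0379 from limma). The call of vit-2 was lost without either BB4 library and without the standard N2 library.

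Other intestinal genes were lowered in part. Of 63 features 5 were lowered over 2-fold (7.94%, against 2.38% of all features) and none raised, with a median of -0.55, and the 5 were fat-5, fat-7, pept-1, cpr-1 and far-4. fat-5, pept-1 and far-4 were named after their values were seen. fat-7, a stearoyl-CoA desaturase, had 193 in N2, 539 in BB4 and 315 in BB21 after heat shock, against 2016, 1172 and 1783 (log2 fold change -2.33, standard error 0.40, adjusted p = 0.0147 from limma). N2 had the lowest value after heat shock and the highest without it. cpr-1, a cathepsin B-like protease, had 961 in N2, 995.5 in BB4 and 585 in BB21 after heat shock, against 3102, 3481 and 1542 (log2 fold change -1.63), with an adjusted p of 0.0693 without the standard BB4 library. The count was 1 without the standard BB4 library, and 8 without either N2 library or without the heat-shocked BB21 library. The intestinal marker ges-1 had 347 to 646 after heat shock against 687 to 952 under standard conditions, and the part of intestinal RNA as a whole in these results was not tested.

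Detoxification genes, of the cytochrome P450, UDP-glucuronosyltransferase and glutathione S-transferase families, gave 21 lowered features of 277 (7.58%, against 2.38% of all features) and 6 raised (2.17%, against 5.34%), with a median of -0.55. ugt-63 had 66.6 in N2, 107 in BB4 and 59.6 in BB21 after heat shock, against 599, 727 and 266 (log2 fold change -2.68, standard error 0.35, adjusted p = 0.00592 from limma). gst-24 went the other way, with 3874.5 in N2, 1253 in BB4 and 1228 in BB21 after heat shock, against 184, 212 and 220.1 (log2 fold change 3.14, standard error 0.39, adjusted p = 0.00487 from limma). Its heat-shocked N2 library was about 3-fold above the other heat-shocked ones. The lowered count was 48 without the heat-shocked N2 library, 13 and 7 without the heat-shocked and the standard BB4 library, 12 without the standard BB21 library and 12 without the block.

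C-type lectins, many of which respond to microbes, gave 17 lowered features of 212 (8.02%, against 2.38% of all features) and 9 raised (4.25%, against 5.34%), with a median of -0.13. clec-88 had 438 in N2, 258 in BB4 and 788 in BB21 after heat shock, against 2680, 2145 and 2430.2 (log2 fold change -2.43, standard error 0.31, adjusted p = 0.00495 from limma). clec-87 had 1449 in N2, 612 in BB4 and 1436 in BB21 after heat shock, against 3117, 2507 and 2919 (log2 fold change -1.39), and was not called without either BB4 library. As in the oocyte genes named above, BB4 was the lowest strain in both conditions for clec-88 and clec-87. The lowered count was 39 without the heat-shocked and 27 without the standard N2 library, and 10 and 5 without those of BB4. The raised count was 17 without the heat-shocked N2 library.

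Among called features with a mean of at least 20 and groups that did not overlap, the strongest falls were in features of moderate level. EEED8.15 had 0 in N2, 2.13 in BB4 and 5.41 in BB21 after heat shock, against 113, 54.2 and 113 (log2 fold change -5.04, standard error 0.72, adjusted p = 0.00762 from limma). Y48E1B.8 had 6.34 in N2, 10.7 in BB4 and 5.41 in BB21 after heat shock, against 285, 213 and 166 (log2 fold change -4.73, standard error 0.50, adjusted p = 0.00256 from limma). Both rest on at most 5 reads per heat-shocked library. flh-3, a FLYWCH zinc finger gene, had a log2 fold change of -4.50 and clec-70 of -4.34. Among abundant lowered features hacd-1, a hydroxyacyl-CoA dehydrogenase, had 533 in N2, 313 in BB4 and 432 in BB21 after heat shock, against 1979, 2588 and 1589 (log2 fold change -2.27, standard error 0.30, adjusted p = 0.00604 from limma). F28A12.4 had 91.9 in N2, 844 in BB4 and 625 in BB21 after heat shock, against 3261, 2612.5 and 2113.5. The fall was much larger in N2 than in the mutant strains, without a test, and the log2 fold change was -2.84 (standard error 0.61, adjusted p = 0.0291 from limma).

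Several large lists held no call over 2-fold. None of 91 ribosomal protein features passed in limma, edgeR or DESeq2 (1 higher and 0 lower at an unadjusted p under 0.05 from limma), with medians of 0.51 in N2, 0.36 in BB4 and -0.09 in BB21. rpl-1 had 73283 in N2, 64503 in BB4 and 47341 in BB21 after heat shock, against 53336, 49030 and 48461 (log2 fold change 0.27, adjusted p = 0.342 from limma, and -0.26 after quantile normalization). None of 48 proteasome features was called by any of these tools (1 higher and 2 lower at an unadjusted p under 0.05), nor any of 37 respiratory chain features (0 at an unadjusted p under 0.05). Of 93 muscle features limma and edgeR called 0 and DESeq2 called 1 raised and 3 lowered, with 13 higher and 4 lower at an unadjusted p under 0.05. Without the heat-shocked BB21 library 8 muscle features were raised. Of 85 sperm features limma and edgeR called 0 and DESeq2 1 raised and 2 lowered (7 higher and 3 lower at an unadjusted p under 0.05). The sperm list had medians of 0.85 in N2, -0.29 in BB4 and -0.44 in BB21, and this difference between strains has no test. Of 30 hypodermis features none passed in the 3 tools (4 higher and 2 lower at an unadjusted p under 0.05), and 7 were raised without the heat-shocked N2 library. Other lists did hold calls. Of 145 neuron features 3 were raised (2.07%, against 5.34% of all features) and 1 lowered (0.69%, against 2.38%). Of 53 features of RNAi factors 1 was raised (1.89%) and 2 were lowered (3.77%). Of 60 transthyretin-related features 8 were raised (13.3%, above the 5.34% of all features) and 1 was lowered (1.67%). Without the heat-shocked N2 library 7 of the neuron features were raised, and without the heat-shocked or the standard BB4 library 1 or 0 of the transthyretin-related ones.

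**Figure D3:**
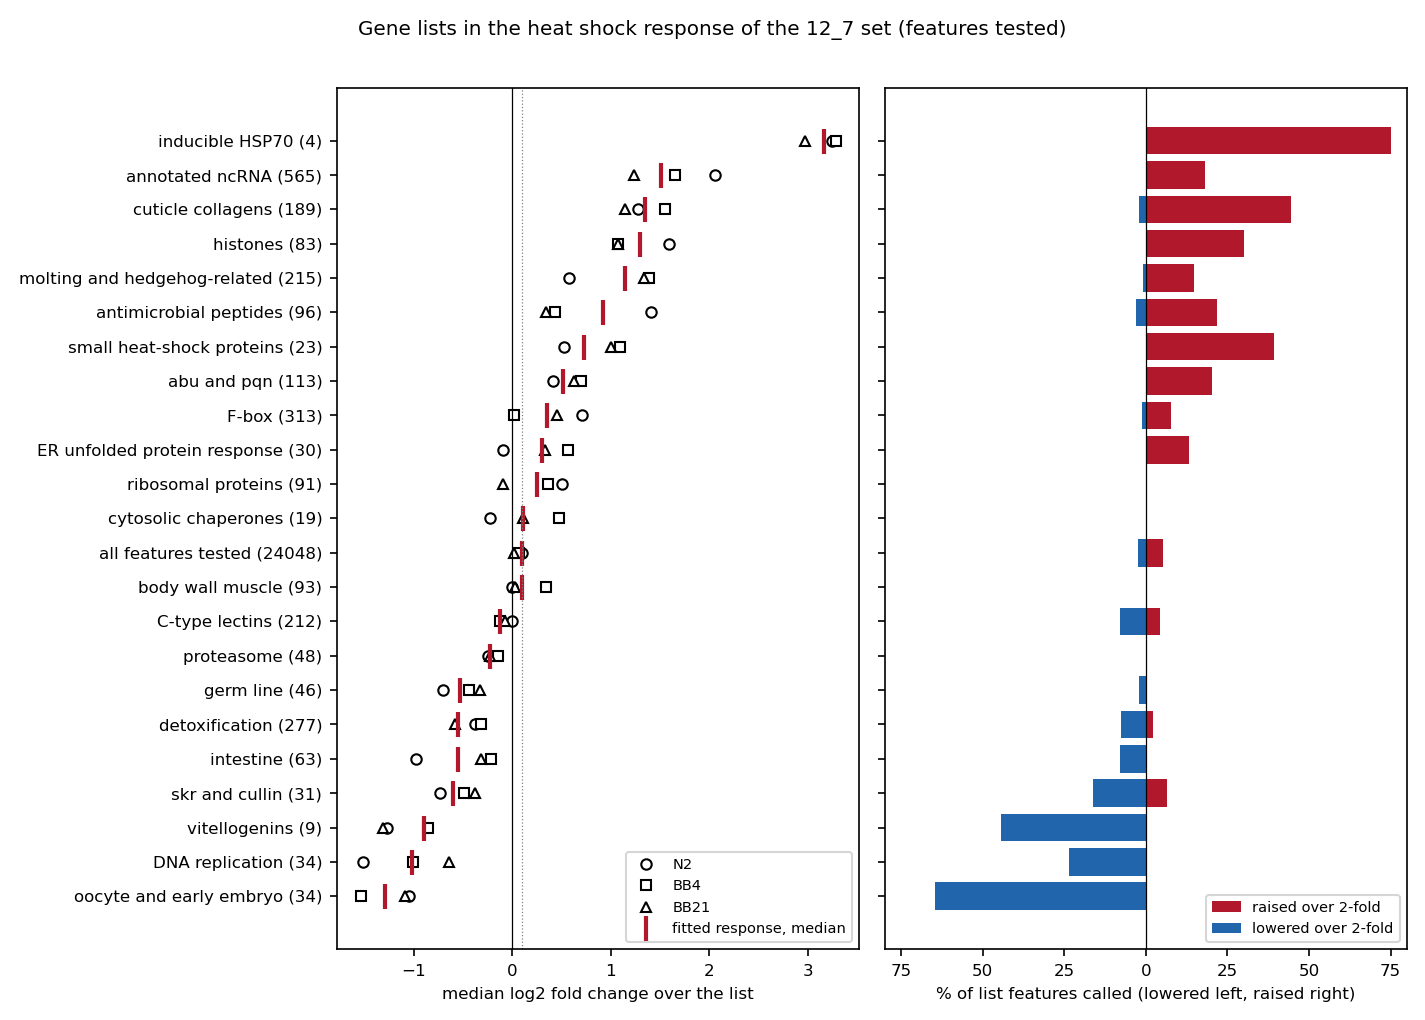
Left, median log2 fold change of each gene list in N2 (circle), BB4 (square) and BB21 (triangle), with a bar for the median of the fitted response and a dotted line at the median of all features (0.10). Right, percent of the list's features raised (red) and lowered (blue) over 2-fold, where small heat-shock proteins reach 39.1% raised and oocyte genes 64.7% lowered.

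Most features that changed over 4-fold in one strain by log2 ratio alone did not do so in all 3. By this measure, 3578 features in N2, 2484 in BB4 and 2023 in BB21 were over 4-fold higher after heat shock, and 1793, 864 and 466 over 4-fold lower. In all 3 strains at once 694 were higher and 77 lower. With 1 library per strain and condition these are counts without a test, and N2 had the shallowest heat-shocked library. Among features with a mean of at least 20 the higher ones were 1693, 1090 and 986 in N2, BB4 and BB21. Across features Pearson's r between the log2 ratios of BB4 and BB21 was 0.657, that of N2 and BB4 0.496 and that of N2 and BB21 0.423. Among features with a mean of at least 100 the same values were 0.797, 0.600 and 0.477. N2 differs from the other strains in genotype as well as in depth, and these cannot be told apart. Features are not independent replicates, so these are descriptions. The 1010 raised features had median log2 ratios of 3.32 in N2, 3.19 in BB4 and 2.99 in BB21, and the 216 lowered ones -2.49, -3.22 and -2.27.

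The other 10 libraries, which share no library with these 6, allow the direction to be read again in 5 further pairs. Of the 1010 raised features 950 (94.1%) were above 0 in the 28_6 pairs and 986 (97.6%) in the pairs with other endings, and of the 216 lowered ones 205 (94.9%) and 210 (97.2%) were below 0. Over all 23788 features the shares with the same direction were 76.7% and 74.9%. The sizes were smaller: the median log2 change of the raised features was 3.16 with the ending 12_7, against 1.35 in the 28_6 pairs and 2.32 in the pairs with other endings. They were chosen as large in the 12_7 pairs, so a smaller value elsewhere is built into the choice. The libraries with other endings were deeper, at 30011732 to 35693369 reads.

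The difference in response was tested in 1 fit of all 8 pairs over 24401 features, each pair a block. The set with other endings pools pairs of several endings, and in its BB4 pair the heat-shocked and the standard library have different endings and are paired by strain and replicate number. Against the mean of the other pairs 41 features responded more (0.168%) and 1 less (0.0041%), namely ugt-16. Against the 28_6 pairs 39 responded more (0.16%) and 4 less (0.0164%), and against the pairs with other endings 10 more (0.041%) and 0 less (0.0%), where limma gave 1877 more and 1146 less at an unadjusted p under 0.05, and no other tool was run. Of the 41, 10 were heat shock protein features, among them hsp-16.48 and hsp-16.49 with the same reads, and hsp-16.1 with hsp-16.11 and F44E5.4 with F44E5.5 with close to the same counts. In the 28_6 pairs 12 of the 41 were computed as below 0. These include F54H12.4, named after its values were seen, which had 0 in all 28_6 libraries and so no change there. The count of 41 was 5 to 79 when 1 pair was left out: 79 without N2 of the ending 12_7, 14 without BB4 of it, 12 without BB4 and 5 without N2 of 28_6, and 12, 10 and 10 without BB21, BB4 and N2 of the other endings.

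hsp-70 showed the difference most firmly. Its heat-shocked libraries had 2847 to 3456 with the ending 12_7, against 266 and 628 in BB4 and N2 of 28_6 and 2603 to 3178 in those with other endings. Its standard libraries had 354 to 460 with the ending 12_7, against 647 and 1162 in 28_6 and 1473 to 1728.5 in the others. So after heat shock hsp-70 was lower than standard in 28_6, and the 12_7 pairs stood apart from those with other endings by their standard level. The log2 fold change of hsp-70 was 2.99 with the ending 12_7, -1.08 in 28_6 and 0.89 in the others, and it differed from the mean of the other 2 by 3.08 (standard error 0.18, adjusted p = 0.000254 from limma). It was the only heat shock gene that also differed from the pairs with other endings (2.10, adjusted p = 0.00825).

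F44E5.4 had a log2 fold change of 3.35 with the ending 12_7, -0.57 in 28_6 and 2.80 in the others. It differed from 28_6 (3.92, adjusted p = 0.000186 from limma), while the difference of 0.55 from the other endings did not pass (adjusted p = 0.344). hsp-16.2 had 3.37 with the ending 12_7, 0.37 in 28_6 and 1.52 in the others, and hsp-16.11 had 2.95, 0.15 and 1.71. Their differences from the mean of the others were 2.42 (adjusted p = 0.00855) and 2.02 (adjusted p = 0.00841), limma for both. The call of hsp-16.2 was lost without BB4 of the ending 12_7 and without N2 or BB4 of either other set (adjusted p = 0.0525 to 0.0593), and that of hsp-16.11 without BB4 of 12_7, without BB4 or N2 of 28_6 and without the block (adjusted p = 0.0556 to 0.0789). Y46B2A.2 had 9.44 with the ending 12_7, 4.43 in 28_6 and 5.19 in the others. Its standard libraries had 0 to 4.03, 4.70 to 10.7 and 42.1 to 74.9. Its heat-shocked libraries had 907 to 2982, 95.9 to 318 and 2178.5 to 2318.7, so those of 28_6 were the lowest. With 4 standard reads at the ending 12_7, its difference from the mean of the others was imprecise and ran from 3.09 to 4.85 under the alternatives. Against the pairs with other endings, depth and title ending cannot be told apart, while the 28_6 libraries held 7856224 to 8963440 reads, within the range of those with the ending 12_7.

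**Figure D4:**
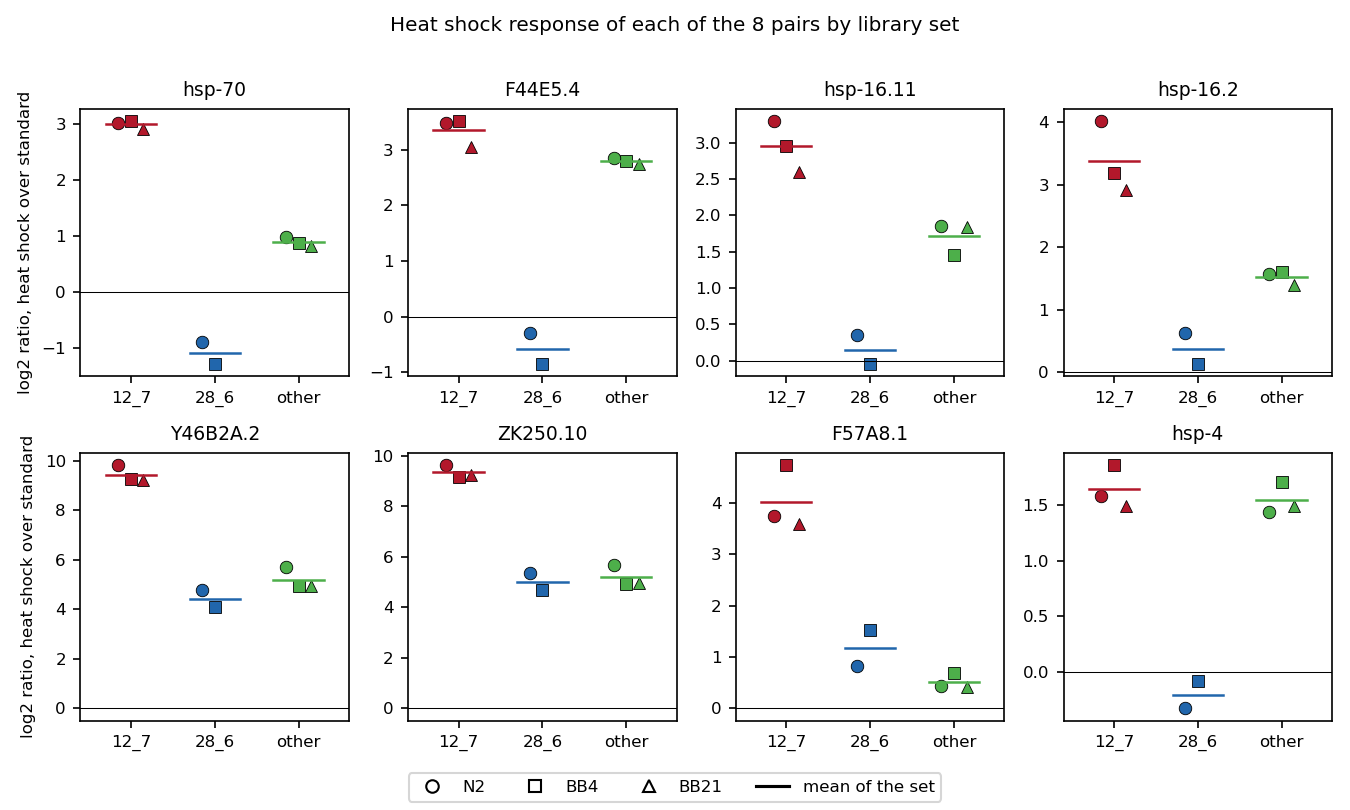
Log2 ratio of heat shock over standard conditions in each of the 8 pairs (N2 circle, BB4 square, BB21 triangle), by title ending of the libraries. For hsp-70 the 3 pairs of 12_7 lie between 2.91 and 3.05, the 28_6 pairs below 0 and the others between 0.82 and 0.97.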

How the data were processed

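Poly(A) RNA of whole worms was sequenced as single 50 bp reads. Per the methods, the authors trimmed and collapsed the reads, aligned them to WS220 transcripts with Bowtie, keeping multiple alignments, and counted them per transcript. The authors deposited a signal table of counts divided by DESeq2 size factors, for 26080 features. All values were whole multiples of 1 step per library (tolerance 0.001), which gave the reads back. A deposited table of the authors' own fold changes and p-values was not used. Aligner versions are not given in the sources used here. Kept multiple alignments let near copies share reads: 722 features share all reads with another.

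Values were tested as log2(value + 1) with limma 3.58.1 (trend) in R 4.3.3, with strain as a block, a mean of at least 1 over the 6 libraries and Benjamini-Hochberg adjustment. Deviations from the group means correlated by 0.234, 0.174 and 0.217 within strains, which the design pairs. Calls are an adjusted p under 0.05 and a change over 2-fold or 4-fold. p-values measure the spread between these libraries, with each feature's variance drawn toward a trend over all features. The fit had 2 residual and 6.36 prior degrees of freedom, so most of each variance came from that trend. edgeR 4.0.16 and DESeq2 1.42.0 on the recovered reads, other pseudocounts, filters, scalings, a fit without the block and leaving out each library were alternatives. With the block, leaving out 1 library takes the whole pair of its strain out of the fold change, so it does not test that library alone. Named genes were those the study names, the 10 highest, lowest, most abundant raised and most abundant lowered calls whose mean reached 20 and whose groups did not overlap, the 4 most abundant members and 2 lowest p of each list, and the 10 lowest p of the difference between title endings, with 1 feature per set of the same reads. Counting intervals are exact (Clopper-Pearson on the reads of both groups) and cover counting error only. The members and lists were chosen with earlier results of these data known. Scripts were tested on simulated data.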

Additional observations from a re-analysis of the deposited data

Results flagged for a closer look

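The response of the pairs with the ending 12_7 differed from the mean of the other 2 sets of pairs, by limma's test of the difference itself, in 41 features with a larger and 1 with a smaller log2 fold change. The 10 with the lowest adjusted p among features with a mean of at least 20, with 1 feature per set of the same reads (ZK250.9 has those of Y16E11A.2), were hsp-70 with a difference of 3.08 on the log2 scale, Y46B2A.2 with 4.63, ZK250.10 with 4.24, F44E5.4 with 2.24, F44E5.5 with 2.23, F59H6.5 with 4.88, Y16E11A.2 with 4.90, F57A8.1 with 3.18, hsp-16.11 with 2.02 and hsp-16.1 with 2.04. F57A8.1 had 558 to 810 normalized counts after heat shock with the ending 12_7 and 29.5 to 49.3 under standard conditions, while the libraries with other endings had 507 to 566 after heat shock and 322 to 426 under standard conditions. Between the ending 12_7 and the other endings its heat-shocked levels thus lay close together, and its standard levels did not. The 28_6 libraries had 82.6 to 94.9 after heat shock and 28.2 to 53.3 under standard conditions. Against 28_6, then, the standard levels lay close together and the heat-shocked levels did not. The calls of Y16E11A.2 and F59H6.5 were lost without N2 of 28_6, that of F57A8.1 without N2 of 28_6 and without N2 or BB4 of the other endings, and those of hsp-16.11 and hsp-16.1 without BB4 of 12_7, without N2 or BB4 of 28_6 and without the block. Groups of 3 libraries are too small for a test of single outlying libraries.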

How the results depend on the processing

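Of 1275 values of 75 named features under the alternatives, 1236 kept their direction and side of the threshold, 33 lost the call, 3 gained it (hsp-1 and crt-1 in the fit of all 8 pairs, C30C11.4 without the heat-shocked N2 library) and 3 changed sign, none of these 3 called: F11F1.1, which ran from -0.38 to 0.14 when 1 library was left out and was above 0 without either BB4 library, and rpl-1 to -0.26 after quantile normalization. The causes were not tested. The replicate block pairs libraries by strain. Without it 802 features were raised and 304 lowered over 2-fold and 128 lowered over 4-fold, and the difference between title endings gave 4 lower. Of the 33 lost calls 9 were lost without the block and 17 without 1 library. Quantile normalization gave 555 raised over 4-fold and 767 over 2-fold, and moved the median of all features by -0.14. The fit of all 8 pairs, with more samples, gave 1777 raised and 352 lowered over 4-fold and 3617 and 1570 over 2-fold. No filter on low values gave 363 and DESeq2 963 lowered over 2-fold, and a pseudocount of 8 gave 2 lower for the difference. Leaving out 1 library gave 534 to 1461 raised and 84 to 405 lowered over 4-fold, and 559 to 2515 raised and 105 to 1194 lowered over 2-fold. Leaving out 1 pair gave 5 to 79 higher and 0 to 5 lower for the difference. With 4699505 reads, the heat-shocked N2 library limits what can be seen in low features.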
